A study of Mus musculus with 12 samples.

Results

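Apoptotic caspases are cysteine proteases that take cells apart after cutting their targets behind aspartate residues. The genes described here are Casp2, Casp8 and Casp9, which encode initiator caspases, and Casp6, which encodes an executioner caspase. They were chosen by gene symbol, 4 of the 18138 symbols on the array, and were read by 8 probes: 1 for Casp2, 2 for Casp6, 2 for Casp8 and 3 for Casp9. Gene expression was measured on 12 Illumina bead arrays, 1 per ileum tumour sample. All samples came from FVB/N mice aged 3 to 4 months with the APCmin allele, a truncating mutation of the tumour suppressor Apc that gives rise to intestinal adenomas. Arrays 1 to 6 carried the genotype FVBN/APCmin and arrays 7 to 12 the genotype iPGC-1β/APCmin. The second genotype is named after PGC-1β (gene Ppargc1b), a coactivator of genes for mitochondrial respiration. The labels describe neither the construct nor the promoter that drives it. Nothing in the labels ties a tumour to an animal, so p-values measure the spread between these samples.

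Initiator caspases are made as inactive monomers that become active when an adaptor brings them together. Caspase-8 is gathered by death receptors through the adaptor FADD, caspase-9 by APAF1 and cytochrome c once mitochondria release it, and caspase-2 by the PIDDosome, a complex of PIDD1 and CRADD. Executioners such as caspase-6 exist as inactive dimers until they are cut, and they then cut structural and repair proteins. Caspase-6 is best known for cutting lamin A. Because all of these proteins wait as precursors, an mRNA level does not give the activity of the enzyme. The amount of protein was not measured here either. In the epithelium of the intestine, caspases act in the shedding of old cells and in the death of damaged crypt cells.

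The promoters of the 4 genes are shown because Casp6 and Casp8 differed in opposite directions and because PGC-1β acts through DNA-binding partners. Each sequence is from RefSeq (GRCm38.p6), plus strand, and runs from 250 bases before to 50 after a start site. The windows lie at chr3:129901165-129901464 (Casp6), chr1:58802252-58802551 (Casp8), chr6:42264735-42265034 (Casp2) and chr4:141793362-141793661 (Casp9). Capitals mark the letters GGGCGG (the GC box bound by Sp1) and of the NRF1 motif (GCGC, any base, TGCGC), the site of a partner of PGC-1 coactivators, on either strand.
Casp6: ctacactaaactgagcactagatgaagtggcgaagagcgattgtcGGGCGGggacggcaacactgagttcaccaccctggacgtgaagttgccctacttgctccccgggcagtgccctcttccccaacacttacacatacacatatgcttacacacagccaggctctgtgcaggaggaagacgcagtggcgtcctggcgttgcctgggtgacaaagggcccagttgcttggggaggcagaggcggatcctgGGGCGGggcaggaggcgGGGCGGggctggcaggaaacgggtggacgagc
Casp8: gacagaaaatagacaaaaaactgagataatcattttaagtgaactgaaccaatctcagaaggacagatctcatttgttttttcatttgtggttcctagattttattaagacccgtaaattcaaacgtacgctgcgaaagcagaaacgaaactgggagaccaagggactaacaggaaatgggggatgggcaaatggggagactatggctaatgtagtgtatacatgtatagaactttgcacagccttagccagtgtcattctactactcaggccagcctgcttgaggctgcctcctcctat
Casp2: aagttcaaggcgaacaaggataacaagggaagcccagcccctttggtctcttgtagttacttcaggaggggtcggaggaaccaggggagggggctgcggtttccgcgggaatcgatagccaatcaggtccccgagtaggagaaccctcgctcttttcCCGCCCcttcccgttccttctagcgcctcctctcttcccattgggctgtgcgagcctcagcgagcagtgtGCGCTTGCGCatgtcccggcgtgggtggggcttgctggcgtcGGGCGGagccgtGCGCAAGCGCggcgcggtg
Casp9: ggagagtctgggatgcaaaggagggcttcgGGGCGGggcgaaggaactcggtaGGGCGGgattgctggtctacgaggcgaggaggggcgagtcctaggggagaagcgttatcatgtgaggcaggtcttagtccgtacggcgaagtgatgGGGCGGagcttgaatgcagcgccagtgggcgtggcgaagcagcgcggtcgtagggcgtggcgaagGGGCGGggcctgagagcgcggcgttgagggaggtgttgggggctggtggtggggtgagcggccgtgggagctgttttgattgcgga
The Casp6 window held 3 GC boxes, at -205, 2 and 19 from the start site, and the Casp9 window held 4. The Casp2 window held 2 GC boxes and 2 NRF1 matches, at -23 and 32. The Casp8 window held none of the motifs searched. Across all 32851 promoter windows of the table, 35.7% held a GC box and 4.6% an NRF1 match. Also searched on both strands were TNAAGGTCA (the site of estrogen-related receptors, PGC-1β partners, in 1.28% of windows), its core AGGTCA (16.3%, overlapping the longer motif), CCGGAAG (GABP, 8.86%) and TATAAA (the TATA box, 13.6%). None of these letters occurred in the 4 windows, which says nothing about binding elsewhere. GC content was 62.0% for Casp6, 63.7% for Casp2 and 66.0% for Casp9, but 42.0% for Casp8, with a median of 52.7% over all windows. The Casp6, Casp2 and Casp9 windows held 16, 26 and 28 CpG dinucleotides and the Casp8 window 5, with a median of 7.

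Levels below are log2 intensities after background correction and quantile normalization, and differences are iPGC-1β/APCmin minus FVBN/APCmin with n = 6 arrays per group. A probe passed when its limma adjusted p (Benjamini-Hochberg over 14827 detected probes) was below 0.05. By this rule 300 probes were higher (2.02%) and 159 lower (1.07%) in iPGC-1β/APCmin, together 3.1% of those tested, and 22.3% had an unadjusted p below 0.05. Arrays had raw median intensities of 139.3 to 170.5 and 12858 to 14445 detected probes. The 8 epithelial markers of 9 listed that the array holds were detected on all 12 arrays, as was the ileal bile acid binding protein Fabp6, while the ileal transporter Slc10a2 was detected on 0. The Ppargc1b probe, the gene of PGC-1β, did not mark the genotype: control arrays averaged 8.41 ± 0.65 and iPGC-1β/APCmin arrays 7.86 ± 0.44 (SD, n = 6 each, limma adjusted p = 0.304). Directions rest on the labels, and where this probe lies relative to the added gene is not known here. Arrays 6 and 7 stood apart from their groups in lymphocyte markers. Over all tested probes array 7 correlated at 0.949 to 0.969 with arrays 1 to 5 but at 0.850 to 0.891 with arrays 8 to 12. Array 6 correlated about equally with both, at 0.919 to 0.951 with arrays 1 to 5 and 0.904 to 0.952 with arrays 8 to 12. Casp6 and Casp8, and the other genes whose call depended on arrays 6 and 7, are also given without these arrays.

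Casp6 mRNA was 4.34 to 4.47 times as high in iPGC-1β/APCmin tumours by its 2 probes. Casp6 encodes the executioner that cleaves nuclear lamin A. The raw intensity of probe ILMN_2923865 was 458.6 at the lowest, 535.55 at the median and 747.7 at the highest of the FVBN/APCmin arrays. On the iPGC-1β/APCmin arrays it was 1268.8, 2090.65 and 4471.8. The dimmest iPGC-1β/APCmin array (array 10) was thus brighter than the brightest control array (array 3), with no overlap. Probe ILMN_2923864 ran from 331.9 through a median of 360.9 to 490 in FVBN/APCmin and from 870.5 through 1210.15 to 2892.1 in iPGC-1β/APCmin. Array 11 was the highest on both probes, and array 7, which resembled the control arrays over all probes, was well above every control array.

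After normalization the ILMN_2923865 level rose from 8.77 ± 0.26 to 10.89 ± 0.47 (SD, n = 6 each). The difference was 2.12 (SE 0.22, 95% interval 1.65 to 2.59), a fold of 4.34 (3.14 to 6.00), with a limma adjusted p of 0.000752. Among the 14827 probes it ranked 1 by p and 47 by the size of the rise. Probe ILMN_2923864 rose from 8.01 ± 0.27 to 10.17 ± 0.51 (SD, n = 6 each). Its difference was 2.16 (SE 0.23, 95% interval 1.67 to 2.66), a fold of 4.47, with the same limma adjusted p of 0.000752 and ranks of 4 by p and 42 by size. For each probe the exact two-sided permutation p was 0.00216, the smallest that 924 relabelings can give. Groups did not overlap, higher, for 281 probes (1.9%). The probes followed each other array by array, at r = 0.991 over the 12 arrays and 0.911 within groups. With any 1 array left out both stayed past the threshold, with differences of 1.96 to 2.28. The caspases were chosen with earlier results of these data known, so these values are no independent second test.

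**Figure D1:**
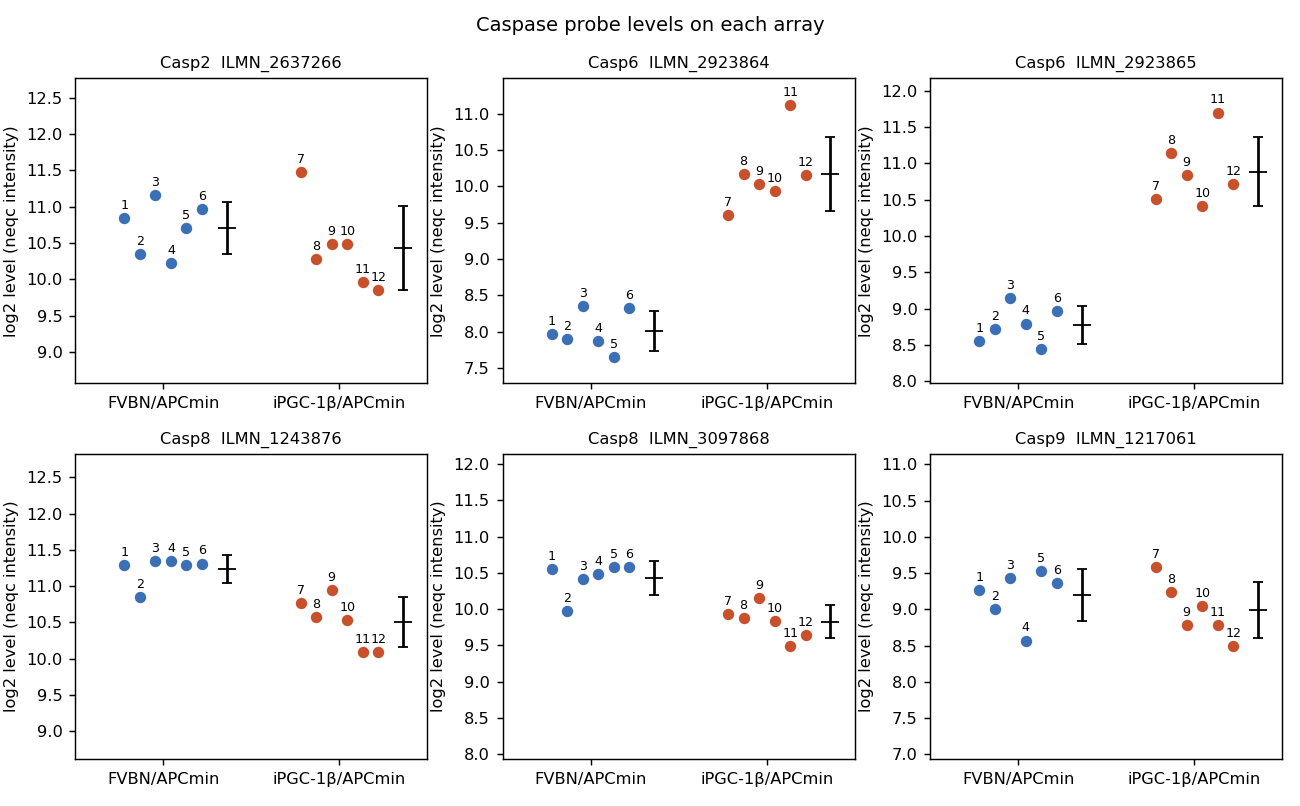
Log2 level of each detected Casp2, Casp6, Casp8 and Casp9 probe (vertical axis, neqc intensity, same span in all panels) on the 12 arrays, numbered, by genotype. Bars give the mean ± SD of 6 arrays. Both Casp6 probes separate the genotypes, the Casp8 probes are lower in iPGC-1β/APCmin with overlap through arrays 2 and 9, and Casp2 and Casp9 overlap widely.

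Casp8, the initiator of the death receptor pathway, was lower in iPGC-1β/APCmin tumours at 0.600 and 0.659 times the control level by its 2 probes, 1 on each side of the threshold. The raw intensity of probe ILMN_1243876 was 1926.7, 2563.2 and 2851.5 (lowest, median, highest) in FVBN/APCmin and 1329.9, 1430.1 and 2249.3 in iPGC-1β/APCmin. Its normalized level fell from 11.24 ± 0.19 to 10.50 ± 0.35 (SD, n = 6 each). The difference was -0.74 (SE 0.18, 95% interval -1.11 to -0.36), a fold of 0.600, with a limma adjusted p of 0.0384 and an exact permutation p of 0.00433. After normalization the groups overlapped through array 2, the lowest control at 10.85, and array 9, the highest iPGC-1β/APCmin array at 10.94. All 6 iPGC-1β/APCmin arrays lay below the control mean.

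The other Casp8 probe, ILMN_3097868, gave the same direction without passing. Its raw intensity was 1191.2, 1528.65 and 1755.8 in FVBN/APCmin and 889.9, 974.25 and 1380 in iPGC-1β/APCmin. The normalized level was 10.43 ± 0.23 against 9.83 ± 0.23 (SD, n = 6 each), a difference of -0.60 (SE 0.16, limma adjusted p = 0.0538, exact permutation p = 0.00433). Array 2 was again the low control and array 9 the high iPGC-1β/APCmin array, and the probes correlated at 0.917 within groups. The call of ILMN_1243876 was lost without array 1, 3, 4, 5, 10, 11 or 12, at limma adjusted p-values of 0.0900, 0.0936, 0.0870, 0.0885, 0.0781, 0.0794 and 0.0708, while its difference stayed between -0.83 and -0.66. Conversely ILMN_3097868 passed without array 2 (0.0441), array 7 (0.0252) or array 9 (0.0382).

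Casp2 and Casp9, the initiators of the PIDDosome and the apoptosome, did not pass. Casp2 (ILMN_2637266) had raw intensities of 1264.9, 1717.65 and 2423.2 in FVBN/APCmin and 1121.5, 1305.5 and 2616.1 in iPGC-1β/APCmin. Its normalized level was 10.71 ± 0.36 and 10.43 ± 0.58 (SD, n = 6 each), a difference of -0.28 (SE 0.26, 95% interval -0.84 to 0.27, limma adjusted p = 0.559, exact permutation p = 0.331). Array 7 carried the highest Casp2 level of all 12 arrays, at 11.48, and arrays 11 and 12 the lowest. Without array 7 the difference was -0.49, and it still did not pass (limma adjusted p = 0.117).

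Casp9 had 1 probe with signal. ILMN_1217061 ran from 494.9 through 719.45 to 933.8 in FVBN/APCmin and from 497.9 through 600.1 to 860.6 in iPGC-1β/APCmin, so the ranges nearly coincided. The normalized level was 9.20 ± 0.36 and 8.99 ± 0.39 (SD, n = 6 each), a difference of -0.21 (SE 0.22, 95% interval -0.67 to 0.26, limma adjusted p = 0.614, exact permutation p = 0.348). The other 2 Casp9 probes stayed at background: ILMN_2674731 was detected on 2 arrays (7 and 12) and ILMN_2758139 on 0, and neither was tested. The files do not say where these probes lie in the transcript.

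Set side by side, the executioner Casp6 rose and the initiator Casp8 was lower on both probes, of which 1 passed. The initiators Casp2 and Casp9 did not pass. The 95% intervals of the Casp6 probes began at 1.65 and 1.67 on the log2 scale, and those of the 4 tested initiator probes ended at 0.27 or lower. Of the 6 tested member probes, 2 passed as higher and 1 as lower, against 2.02% and 1.07% of all tested probes. The 2 higher probes both read Casp6.

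Of the inflammatory caspases, Casp1 and Casp4 fell. Casp1, which matures interleukin-1β, fell by 0.89 (SE 0.17, limma adjusted p = 0.0149) with every iPGC-1β/APCmin array below every control array, as for 0.776% of probes. Casp4, the sensor of bacterial lipopolysaccharide, fell by 1.70 on probe ILMN_2811737 (limma adjusted p = 0.0174, but 0.0514 without array 1) and by 1.45 on ILMN_1254655 (limma adjusted p = 0.0192). The remaining Casp4 probe had a difference of -0.45 and did not pass (limma adjusted p = 0.281). With the lymphocyte marker level described below as a covariate, the differences were -0.61 for Casp1 and -0.72 for Casp4, and neither passed (limma adjusted p = 0.367 and 0.422). Both calls were also lost with an epithelial covariate (-0.72 and -1.66, limma adjusted p = 0.0663 and 0.0591), and that of Casp1 with arrays shifted to a common 75th percentile in place of quantile normalization (-0.67, limma adjusted p = 0.0834). Casp12 was detected on 2 arrays and Casp14, a caspase of the skin, on 1, and neither was tested. Of the 4 other caspases described here 2 were tested, 2 lower and 0 higher (over all genes 1.17% were lower and 2.1% higher). The median difference over all 10967 genes tested was -0.01.

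**Figure D2:**
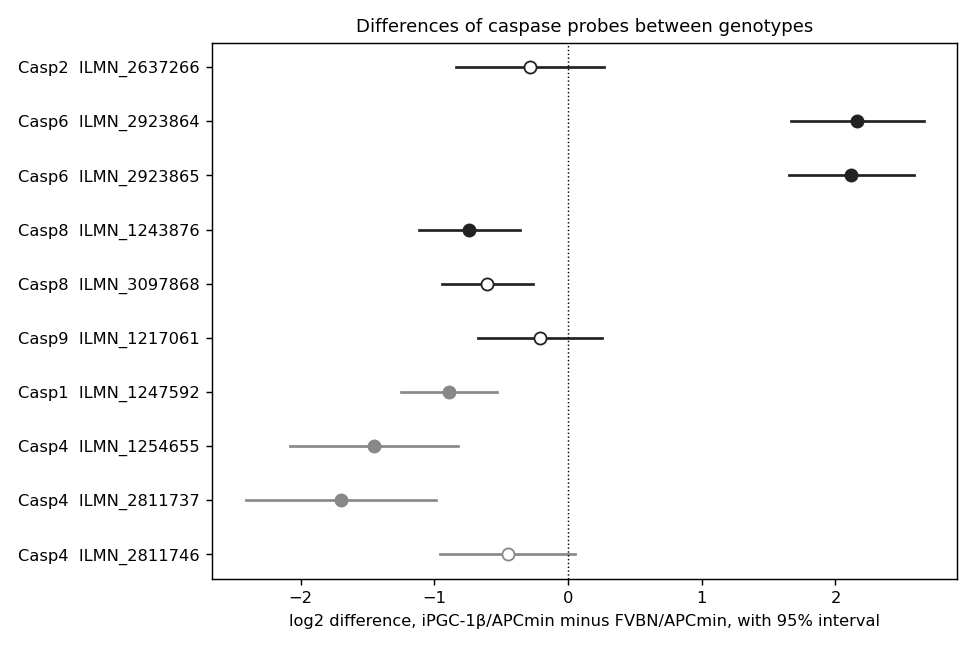
Log2 difference between genotypes (horizontal axis, iPGC-1β/APCmin minus FVBN/APCmin) with its 95% interval for the detected probes of the caspases described. Black marks the Casp2, Casp6, Casp8 and Casp9 probes, grey Casp1 and Casp4, and filled points a limma adjusted p below 0.05. Both Casp6 probes lie above 2, and no other plotted probe has a point above 0.

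Lymphocyte markers moved with the genotype, and their level is set beside the caspases for that reason. All 15 tested lymphocyte markers of 18 listed had lower means in iPGC-1β/APCmin. Of these, 4 passed (Cd3e, Cd8b1, Klrd1 and Nkg7), where 1.17% of all genes passed as lower. Cd8a was detected on 0 arrays. Fewer lymphocytes and less RNA per lymphocyte cannot be told apart in bulk tumour RNA. The marker level, the mean of the centred log2 levels, ran from 1.38 to 1.77 on arrays 1 to 5 and was -0.84 on array 6. It ran from -2.19 to -1.14 on arrays 8 to 12 and was 1.82 on array 7. Casp6 followed the label on both odd arrays. On array 6, low in lymphocyte markers, the ILMN_2923865 level was 8.96, inside the 8.44 to 9.15 of the control group. On array 7, high in these markers, it was 10.51, above every control array. Casp8 did the same, at 11.31 on array 6 and 10.77 on array 7 for ILMN_1243876, although control array 2 (10.85) came close.

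With the lymphocyte level as a covariate the Casp6 difference was 1.92 (SE 0.31, 95% interval 1.27 to 2.57, limma adjusted p = 0.0579) for ILMN_2923865 and 1.86 (limma adjusted p = 0.0584) for ILMN_2923864. In that fit 3 of 14827 probes passed (0.0202%), and 1557 had an unadjusted p below 0.05. The Casp8 differences were -0.71 and -0.66 in the same fit (limma adjusted p = 0.355 and 0.337). Without arrays 6 and 7 the Casp6 differences were 2.23 and 2.34 (limma adjusted p = 2.34e-05 and 1.32e-05), and those of Casp8 were -0.78 and -0.60 (0.0170 and 0.0388). Wnt targets of intestinal tumours were also uneven, with a level of -0.75 to 0.16 on control arrays and -0.78 to 1.68 on the others, and all 7 had higher means without passing. Macrophage markers (5 genes) ran from -0.30 to 0.45 and from -0.66 to 0.70 in the same order. Smooth muscle markers (5 tested) ran from -0.69 to 1.43 and from -0.94 to 1.46. Epithelial markers (8 genes) ran from -0.01 to 0.40 and from -0.48 to 0.26, and with their level as a covariate the Casp8 probe ILMN_1243876 no longer passed (-0.62, limma adjusted p = 0.132). Fabp6 ran from -0.20 to 1.10 and from -3.28 to 0.75 around its mean. Red blood cell markers (2 tested of 3) ran from -2.05 to 0.13 and from -1.75 to 4.02. The part of Wnt target, macrophage, Fabp6 and red blood cell levels in the caspase differences was not tested.

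**Figure D3:**
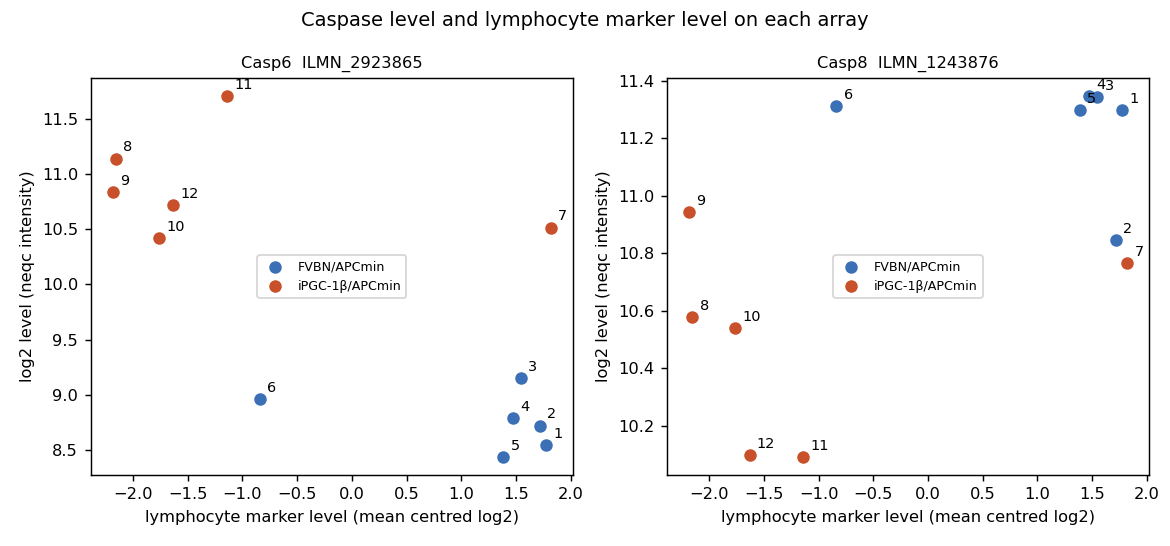
Log2 level of Casp6 (left, ILMN_2923865) and Casp8 (right, ILMN_1243876) on the vertical axis against the level of 15 lymphocyte markers on the horizontal axis, 1 numbered point per array, coloured by genotype. Array 6 lies with the other FVBN/APCmin arrays in caspase level and array 7 with the other iPGC-1β/APCmin arrays, although their lymphocyte levels are near those of the other genotype.

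The genes whose level over the 12 arrays was most like Casp6 (ILMN_2923865) were found by Pearson correlation among 9550 named genes, 1 probe each. The 8 highest were Slc25a39 (r = 0.974), Klhdc3 (0.967), Sdhc (0.960), Pfkm (0.955), Mrps2 (0.954), Ubac1 (0.946), Slc25a4 (0.940) and Sirt3 (0.939). The median over all ranked genes was -0.02, and 0.492% exceeded 0.9. Slc25a39 encodes a mitochondrial carrier of glutathione, Sdhc a subunit of respiratory complex II, Mrps2 a protein of the mitochondrial ribosome, Slc25a4 an exchanger of ADP and ATP, and Sirt3 a mitochondrial deacetylase. Pfkm is a glycolytic enzyme, and Klhdc3 and Ubac1 belong to ubiquitin ligase complexes. All 8 rose and separated the groups, as 1.9% of all tested probes did. They were picked for likeness to a probe that itself separates the groups. Much of each correlation is thus the genotype difference that they share with Casp6. Within groups r was highest for Klhdc3 (0.840) and Slc25a4 (0.826) and lowest for Sirt3 (0.505). Slc25a39 rose by 1.66 (SE 0.20, limma adjusted p = 0.00136) and Pfkm by 1.97 (SE 0.24, limma adjusted p = 0.00136). Klhdc3 rose by 0.79 (limma adjusted p = 0.0237), a call lost without array 1, 2, 3, 5 or 11 (highest adjusted p = 0.0650), and Sdhc by 0.78 (0.0171, or 0.0525 without array 1). With the lymphocyte covariate none of the 8 passed, at differences of 0.70 for Sdhc to 1.85 for Pfkm and limma adjusted p-values of 0.0749 to 0.280. Without background correction Slc25a4 rose by 0.50 in place of 1.42, and Mrps2 by 0.62 in place of 1.01. The Slc25a4 probe was detected on 3 of 6 FVBN/APCmin arrays and 6 of 6 iPGC-1β/APCmin arrays, with a control mean of 5.01.

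Casp6 lies on chromosome 3, and its measured neighbours are set beside it. Gene order was taken from RefSeq (GRCm38.p6), and the 8 nearest protein-coding genes with a detected probe on each side of Casp6 were read. Cfi, 2 measured genes before Casp6, had the highest difference, 2.18 (SE 0.87, limma adjusted p = 0.159). It was detected on 4 of 6 FVBN/APCmin and 5 of 6 iPGC-1β/APCmin arrays. Cyp2u1, a cytochrome P450, came closest to passing as higher, at 1.27 (SE 0.33, limma adjusted p = 0.0502). It was above the control mean on 6 of 6 iPGC-1β/APCmin arrays. The Cyp2u1 probe was detected on 4 of 6 FVBN/APCmin arrays, with a control mean of 5.24. Cfi and Cyp2u1 were not followed through the alternative fits. Of the 16 neighbours, 0 passed as higher and 2 as lower, against 2.1% and 1.17% of all genes. A count of 0 higher among 16 is near the share of all genes. The 16 differences ran from -1.19 to 2.18 with a median of 0.04. The lower genes were Enpep, an aminopeptidase of the brush border (-1.19, limma adjusted p = 0.0342), and Papss1, which makes the sulfate donor PAPS (-0.90, limma adjusted p = 0.0282). Without array 1, 2, 3, 4, 5 or 12, Enpep and Papss1 both lost their calls, as did Enpep without array 11 and Papss1 without array 10 (adjusted p up to 0.0824 and 0.0692). With the lymphocyte covariate the differences were -1.33 and -0.88 and neither passed (limma adjusted p = 0.239 and 0.298). With the epithelial covariate they were -0.55 and -0.62 (0.207 and 0.142), and Papss1 was also lost with the 75th percentile shift (-0.75, 0.0519). The adjacent gene Pla2g12a, a secreted phospholipase, had a difference of 1.24 (SE 0.40, limma adjusted p = 0.0939, or 0.0234 without array 7). Without arrays 6 and 7 the Pla2g12a difference was 1.60 (0.0128), with the lymphocyte covariate 0.36 (0.878) and with the epithelial covariate 0.64 (0.469). Its level was above the control mean on 6 of 6 iPGC-1β/APCmin arrays. On the other side the nearest measured gene, Sec24b of the vesicle coat, had a difference of -0.39 (limma adjusted p = 0.236).

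**Figure D4:**
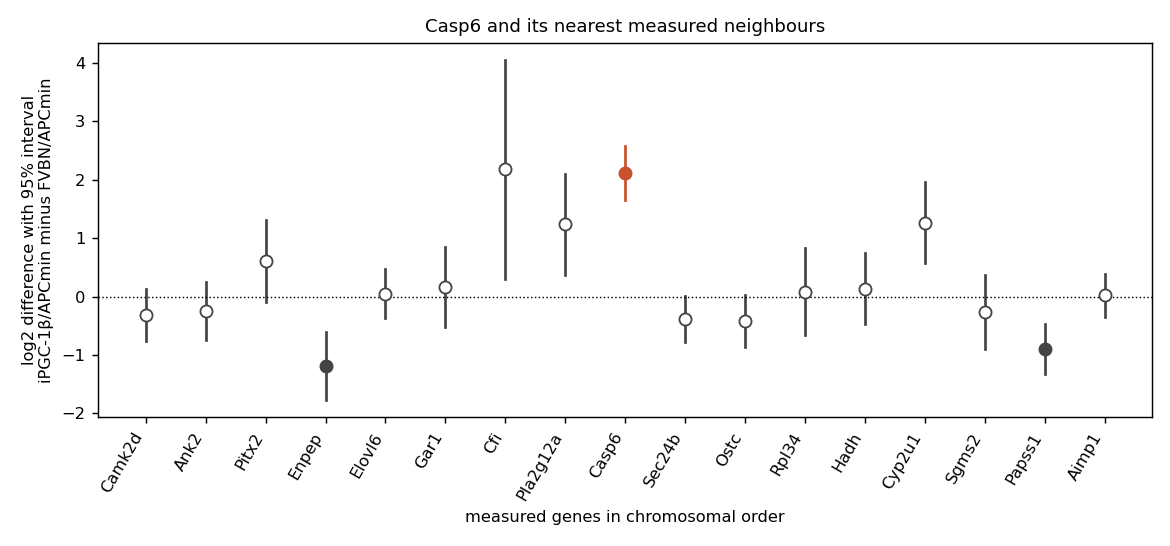
Log2 difference between genotypes with its 95% interval (vertical axis) for Casp6 (orange, ILMN_2923865) and the 8 nearest measured protein-coding genes on each side, in chromosomal order (horizontal axis, not to scale). Filled points had a limma adjusted p below 0.05. Casp6 is the sole filled point above 0, Cfi is open at 2.18, and Enpep and Papss1 are filled below 0.

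Of the genes that switch caspase-8 on, Fas alone passed. Of 11 listed ligands, receptors and adaptors, 10 were on the array and 9 were tested, of which 0 were higher and 1 lower (3.26% of all genes passed in either direction), with a median difference of -0.29. Fas, the death receptor, fell by 1.45 (SE 0.32, limma adjusted p = 0.0282), from 9.44 ± 0.36 to 7.99 ± 0.77 (SD, n = 6 each). Its other detected probe had a difference of -1.49 (limma adjusted p = 0.0562). The Fas call was lost without array 1, 2, 3, 4, 5, 10, 11 or 12 (adjusted p up to 0.0735), and its difference was -0.53 with the lymphocyte covariate (adjusted p = 0.565) and -1.13 with the epithelial one (0.133). Its ligand Fasl, made by cytotoxic lymphocytes, had a difference of -0.56 (limma adjusted p = 0.0849). The Fasl probe was detected on 6 of 6 FVBN/APCmin arrays but 3 of 6 iPGC-1β/APCmin arrays. Fasl passed without array 7 (0.0372) and without arrays 6 and 7 (-0.66, 0.0345), and its difference was -0.30 with the lymphocyte covariate and -0.17 without background correction. The adaptor Fadd had a difference of -0.04 (95% interval -0.36 to 0.29) and the kinase Ripk1 one of -0.29 (limma adjusted p = 0.280). Cflar, the decoy of caspase-8, was detected on 0 arrays.

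Around caspase-9, 1 of 5 tested genes passed as higher and 1 as lower, against 2.1% and 1.17% of all genes. The median difference was 0.12. Cycs, which encodes cytochrome c, the respiratory carrier that triggers the apoptosome, rose by 0.82 (SE 0.20, limma adjusted p = 0.0398) and by 0.97 on its other probe (limma adjusted p = 0.0404). On both Cycs probes every iPGC-1β/APCmin array exceeded every control array, as for 1.9% of probes. The Cycs call at 0.82 was lost without array 1, 2, 3, 4, 5, 8, 10, 11 or 12 (adjusted p up to 0.0977). Bid, which caspase-8 cuts to open mitochondria, fell by 1.19 (SE 0.30, limma adjusted p = 0.0469), and the call was kept in 2 of 12 fits without an array, those without array 6 or array 7 (adjusted p up to 0.105 in the others). The other tested Bid probe had a difference of -0.24 and did not pass (limma adjusted p = 0.475), and the mean of both gave -0.71 (0.0904). The call at 1.19 was also lost with no filter (0.0655), with the 75th percentile shift (0.0520) and with the epithelial covariate (0.112), and that of Cycs with no filter (0.0661). Without background correction the Cycs difference was 0.53 (0.0468). With the lymphocyte covariate the differences were 0.49 for Cycs and -0.47 for Bid. Apaf1, the scaffold that binds caspase-9, had differences of -0.65 and -0.66 (limma adjusted p = 0.136 and 0.295). The pore proteins Bak1 and Bax had differences of 0.60 and 0.12 without passing.

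Around caspase-2, 0 of 3 tested genes passed in either direction, against 3.26% of all genes. The median difference was -0.29. Pidd1 (Lrdd in the file) had a difference of -0.62 (limma adjusted p = 0.279), its partner Cradd was detected on 1 array, Trp53 had a difference of 0.21 and its ubiquitin ligase Mdm2 one of -0.29. Of the inhibitor of apoptosis proteins and their antagonists, 5 were tested and 0 passed, with all 5 means lower and a median of -0.39. At the share of 3.26%, a count of 0 is the usual result for lists this short. Birc3, a ubiquitin ligase that restrains caspase-8, had a difference of -0.82 (limma adjusted p = 0.0956) that passed without array 6 or array 7 (lowest adjusted p = 0.0232) and without both (-1.15, 0.00240). The Birc3 difference was -0.27 without background correction and -0.17 with the lymphocyte covariate. Its probe was detected on 5 of 6 FVBN/APCmin arrays and 2 of 6 iPGC-1β/APCmin arrays. Htra2, a mitochondrial protease that antagonises these inhibitors, had one of -0.48 (limma adjusted p = 0.186). Xiap, the direct inhibitor of caspase-9, was on the array as Birc4 with 3 probes, none of them detected.

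Among caspase substrates 13 of 16 listed genes were tested. Of these, 0 passed as higher and 1 as lower (Bid, counted above), against 2.1% and 1.17% of all genes. The median difference was -0.17. Lmna, which encodes lamin A and is the best known target of caspase-6, had a difference of -0.21 (limma adjusted p = 0.747) on its probe of the highest mean, and its 5 probes ran from -0.26 to -0.11. The chromatin factor Acin1 had a difference of 0.82 (limma adjusted p = 0.118, or 0.0360 without array 9), but its other tested probe had 0.19 (0.681) and the mean of both 0.50 (0.205). The DNA repair kinase Prkdc had a difference of -0.64 (limma adjusted p = 0.210), which passed without array 7 (0.0463) and without arrays 6 and 7 (-0.95, 0.0214). The Prkdc difference was -0.24 without background correction. The repair enzyme Parp1 had a difference of -0.82 (0.245). Across these 6 lists Cycs was the sole gene that passed as higher.

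**Figure D5:**
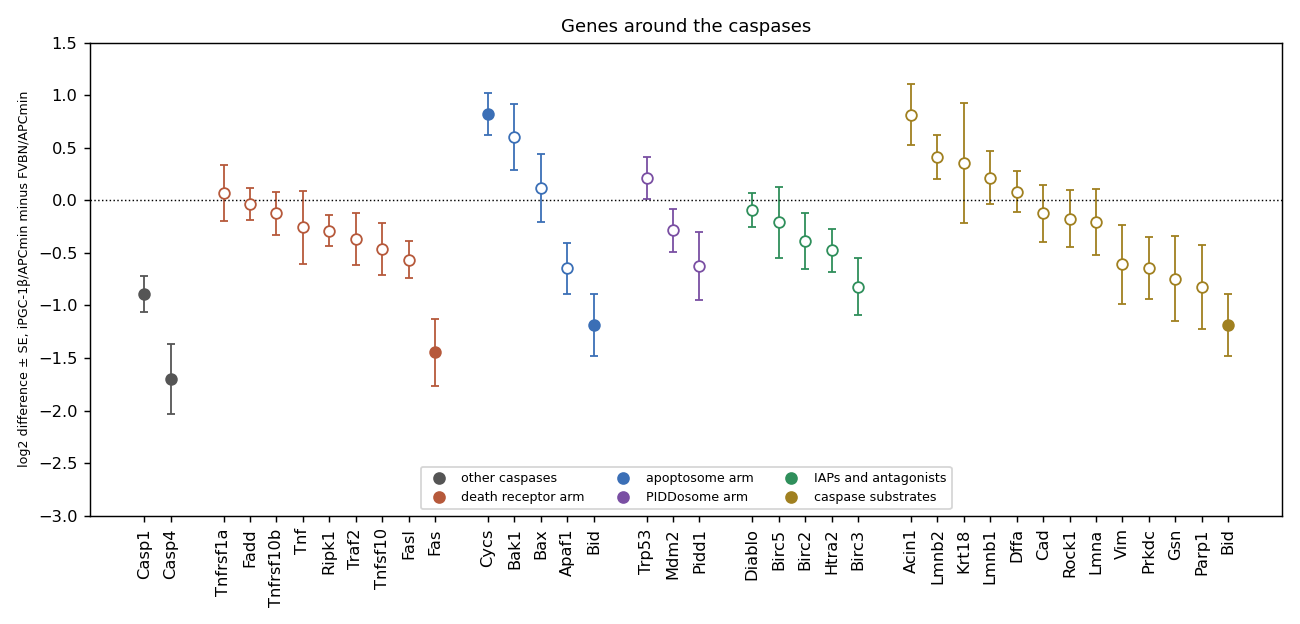
Log2 difference between genotypes ± SE (vertical axis) for each tested gene of the 6 lists around the caspases, coloured by list, with filled points where the limma adjusted p was below 0.05. Cycs is filled above 0, and Casp1, Casp4, Fas and Bid (drawn in 2 lists) are filled below 0.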

How the data were processed

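Tumour RNA was hybridised to 12 single-colour Illumina arrays. The main input was the authors' table of raw signal, where each array has a column of linear intensity over 25697 probes, per the file headers. Beside each of these stands a deposited column of detection p-values. The authors' other table holds intensity that, judging by its values, was quantile-normalized without background subtraction. The submitters' processing notes name GenomeStudio but no version. Background correction (neqc, offset 16, negative-control mean and spread estimated through the detection p-values), quantile normalization and log2 were run with limma 3.58.1 in R 4.3.3. A probe was tested if its detection p was under 0.05 on 4 or more arrays, which kept 14827 probes and 6 of the 8 for the members. Each was fitted singly with lmFit and eBayes with an intensity trend. Genes of the lists were counted by their kept probe of the highest mean (10967 genes). Listed symbols missing from the file were matched through RefSeq synonyms. The exact permutation tests covered all 924 relabelings, two-sided and unadjusted. No chip, position or date is given in the labels, and the number of arrays limits the precision.

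The members, lists, tests and the rule for naming genes were chosen with earlier results of these data known. The rule named all member probes, the other caspases, list genes that passed or up to 3 per list with the smallest p, the 8 genes most like Casp6, and its 8 nearest measured neighbours on each side. Of the neighbours, those that passed and the nearest on each side are given with values. Cyp2u1 and Cfi, singled out after their values were seen, are given too. Genes named from the lists beyond that rule (Fadd, Lmna, Parp1, Bak1, Bax, Cflar, Cradd, Xiap) were chosen for their role after their values were seen. Alternatives were other background corrections, normalizations and filters, 1 value per gene, eBayes without trend, array weights, the authors' table, 3 marker covariates, and leaving out arrays. The fit was tested on simulated data. Results for some genes are not reported here, and the counts of other caspases leave them out.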

Additional observations from a re-analysis of the deposited data

Results flagged for a closer look

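In 8 of the 82 groups of 6 arrays looked at, 1 array lay far from the other 5 by Dixon's gap test, which chance does in about 1 of 20 groups. Control array 2 was low for Casp8, at 10.85 on ILMN_1243876, where the other controls ran from 11.30 to 11.34, and at 9.98 on ILMN_3097868, where they ran from 10.41 to 10.58. Control array 6 was low for Bid (8.25, the others 8.90 to 9.15) and for the lymphocyte marker level (-0.84, the others 1.38 to 1.77), and high for the Wnt target level (0.16, the others -0.75 to -0.43). Array 7 of iPGC-1β/APCmin was high for Birc3 (5.91, the others 4.84 to 5.24) and for the lymphocyte marker level (1.82, the others -2.19 to -1.14). Control array 3 was low for the ileal enterocyte level, which rests on Fabp6 alone (-0.20, the others 0.75 to 1.10).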

How the results depend on the processing

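Both Casp6 probes kept their direction and their call in every alternative run except the lymphocyte covariate (1.92 and 1.86, limma adjusted p = 0.0579 and 0.0584). Background handling moved the Casp6 differences most, to 1.86 and 1.76 without correction and in the authors' table. The Casp8 probe ILMN_1243876 lost its call with no filter (-0.74, adjusted p = 0.0649), with the lymphocyte covariate (-0.71) and with the epithelial covariate (-0.62). ILMN_3097868 passed at the stricter filter (-0.60), with array weights (-0.61), with the smooth muscle covariate (-0.60) and without arrays 6 and 7 (-0.60). Uncalled differences changed sign for Casp2 (0.12), Casp9 (0.0058), Mdm2 (0.00037), Birc2 (0.22) and Prkdc (0.0039) with the lymphocyte covariate, and for Casp9 (0.10) with the epithelial covariate. Leaving out 1 array gave differences of 1.96 to 2.21 and 1.97 to 2.28 for Casp6 (ILMN_2923865 and ILMN_2923864), -0.83 to -0.66 and -0.69 to -0.54 for Casp8 (ILMN_1243876 and ILMN_3097868), -0.49 to -0.17 for Casp2 and -0.33 to -0.11 for Casp9. Probes passing over the array numbered 300 higher and 159 lower. They were 167 and 82 with no filter, 1483 and 1509 with array weights, 2 and 1 with the lymphocyte covariate, 593 and 707 with the smooth muscle covariate, and 1286 and 1416 without arrays 6 and 7. Leaving out 1 array gave 104 (without array 1) to 1047 (without array 7) higher and 32 to 1209 lower, at the same arrays. Among the lists, the lymphocyte covariate left 0 genes past the threshold, higher or lower, in the other caspases, death receptor, apoptosome and substrate lists. Leaving out 1 array gave 1 to 2 lower genes among other caspases, 0 to 2 in the death receptor list, 0 to 1 lower and 0 to 1 higher in the apoptosome list, 0 to 1 lower among IAPs, and 0 to 3 lower and 0 to 1 higher among substrates. The cause of these changes was not tested. No paired analysis was possible because the genotypes share no replicate numbers in the titles.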
